A study of Mus musculus with 9 samples.

Results

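The genes examined here encode the stress sensors and membrane-anchored transcription factors of the endoplasmic reticulum (ER) in the liver of mice fed a high-fat diet. The members are the 10 genes Atf6, Atf6b, Creb3, Creb3l1, Creb3l2, Creb3l3, Mbtps1, Mbtps2, Ern1 and Xbp1, found by symbol among the 33211 genes of the deposited table. All 10 were found and all 10 passed the filter on low counts. They were chosen by family and function, with earlier results of these data known.

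The livers came from wild-type male mice of the strain C57BL/6 (labels; C57BL6/J in the methods), which were young adults per the methods of the study and were fed the diets side by side for several weeks. Both groups received the same high-fat diet (HFD), which had been deep-frozen until the package was opened. In the HFDfre group the opened diet was then kept in a freezer (n = 5 libraries), and in the HFDfri group in a fridge (n = 4 libraries). The mice carried no engineered allele, and livers of mice on a regular diet were not analysed here. As far as the labels state, each library is 1 animal. The p-values measure the spread between these libraries. The comparison asks whether the storage of the diet affected the expression of these regulators.

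When unfolded protein builds up in the ER, ATF6 travels to the Golgi, where site-1 protease (Mbtps1) and then site-2 protease (Mbtps2) cut it and free a transcription factor that enters the nucleus. ATF6B and the CREB3 family are anchored in the ER membrane in the same way and depend on the same proteases. IRE1, encoded by Ern1, is a kinase and endoribonuclease that removes a short intron from the Xbp1 mRNA in the cytoplasm, and the shifted reading frame yields the active factor XBP1s. In hepatocytes these factors drive chaperones, secretory capacity and, for CREB3L3, lipid and acute phase genes.

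The IRE1 intron of Xbp1 is shown first, because it decides what a gene count can and cannot show. It was located where the primer used by the study for the spliced form interrupts the reference transcript. The window is chr11:5524255-5524328 of GRCm38 on the plus strand, within exon 4 of 5 of the transcript Xbp1-201 and within its coding sequence. The capitals mark the 26 bases that IRE1 removes, at 5524279 to 5524304, and in the primer the capitals mark the 7 bases beyond the cut.
Xbp1 unspliced: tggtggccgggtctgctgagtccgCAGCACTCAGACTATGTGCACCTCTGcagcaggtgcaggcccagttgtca
Xbp1 spliced: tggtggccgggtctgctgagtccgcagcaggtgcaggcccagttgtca
Primer for the spliced form: ggtctgctgagtccgCAGCAGG
The removed stretch is 1.22% of the 2129 bases of that transcript, and its length leaves 2 bases over when divided into codons. The counts per gene sum both forms, so the Xbp1 values below are total Xbp1 mRNA.

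The level of each gene is given as CPM, its count relative to the library total after TMM scaling. To compare genes with each other, CPM was divided by the kilobases of annotated exon. On that scale Creb3l3 was the most abundant member in HFDfre at 72.4 ± 5.10 CPM per kilobase (SD, n = 5). Xbp1 followed at 42.0 ± 3.77 and Creb3 at 12.2 ± 1.06. Atf6 at 4.21 ± 0.286, Ern1 at 4.02 ± 0.274, Atf6b at 3.43 ± 0.826 and Mbtps1 at 3.25 ± 0.263 formed a middle range in which no neighbours differed beyond their spread. Creb3l2 was at 1.13 ± 0.268, Mbtps2 at 0.548 ± 0.0395 and Creb3l1 at 0.268 ± 0.131 CPM per kilobase. The order of the first 3 and the last 3 genes was the same in HFDfri, where Creb3l3 was at 86.5 ± 8.05 CPM per kilobase, Xbp1 at 67.3 ± 34.1 and Creb3l1 at 0.244 ± 0.233 (SD, n = 4).

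**Figure D1:**
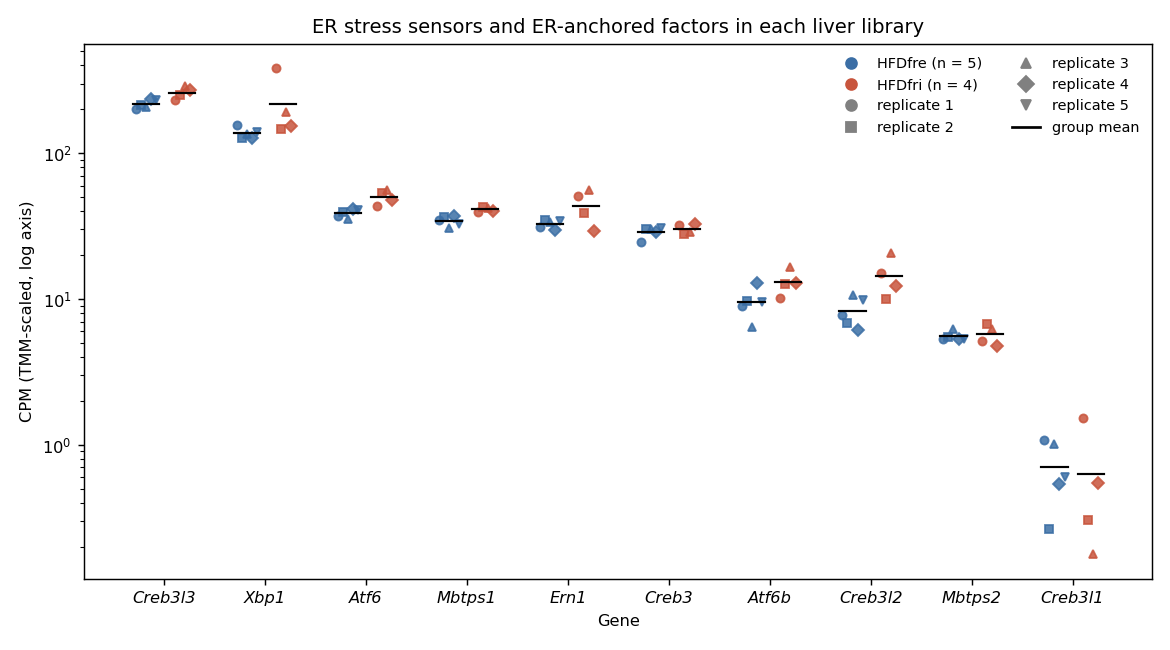
CPM of the 10 members (log axis) in each HFDfre (blue) and HFDfri (red) library, with the marker shape giving the replicate number and the black bar the group mean. Atf6 and Mbtps1 are the 2 genes whose groups do not overlap, with HFDfri higher, as in 4.02% of all tested genes (7.69% in either direction). Xbp1 in HFDfri 1 lies at 382 CPM, far above the other 8 libraries.

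Of the 10 members, 9 had a higher fitted level in HFDfri, against 49.1% of all 14220 tested genes, and the median over the members was 0.32 on the log2 scale against -0.0068 over all tested genes. None passed an adjusted p of 0.05 with edgeR's quasi-likelihood test, against 1.05% of all tested genes (0.499% higher and 0.556% lower). That is 71 of 150 genes higher, and 55 of 76 when library totals set the scaling. DESeq2 called 2 members, Atf6 and Creb3l2, against 6.71% of the tested genes, and limma-voom called 0. At an unadjusted edgeR p under 0.05, 7 members were higher and 0 lower. Of all tested genes 21.2% passed this threshold, 11.4% higher and 9.79% lower. The 7 members were Creb3l2, Xbp1, Atf6b, Ern1, Atf6, Mbtps1 and Creb3l3. The number fell to 4 without HFDfre 1, to 4 without HFDfri 3 and to 3 in the 5 libraries in which the ribosomal RNA-like gene Gm26924 took under 3% of the counts. Over all tested genes it fell from 3009 of 14220 to 2338 of 14104, 1966 of 14419 and 1401 of 14483 in these settings.

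**Figure D2:**
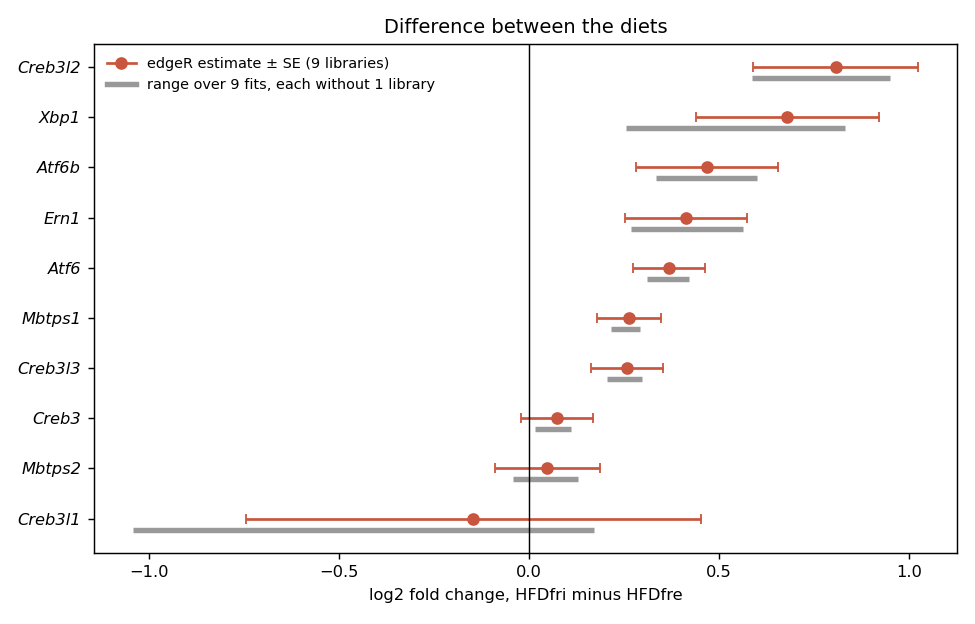
Log2 fold change of each member, HFDfri minus HFDfre, as the edgeR estimate with its SE from all 9 libraries (red) and the range over the 9 fits that each left out 1 library (grey). Creb3l2 has the largest estimate at 0.81, Xbp1 has the widest grey range among the genes above 0, from 0.25 to 0.83, and the grey ranges of Mbtps2 and Creb3l1 cross 0.

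Atf6 (ENSMUSG00000026663, chromosome 1, 170704674 to 170867771, minus strand, GRCm38) encodes the ER stress sensor that is itself the transcription factor. The HFDfre libraries were at 37.3, 39.5, 35.1, 41.6 and 40.8 CPM and the HFDfri libraries at 43.4, 53.2, 56.3 and 47.9 CPM, in replicate order. Every HFDfri library lay above every HFDfre library, as was true of 4.02% of all tested genes (3.66% lay entirely below, 7.69% in either direction). The log2 fold change was 0.37 ± 0.10 (SE, 95% interval 0.16 to 0.58), with an edgeR unadjusted p of 0.00225 and an adjusted p of 0.0792. Without HFDfri 1, the lowest library of its group, the log2 fold change was 0.42 and the edgeR adjusted p 0.0246. In that fit 7.65% of all tested genes passed the adjusted threshold. With DESeq2 the adjusted p was 0.0217. Of 19 alternative settings, these 2 passed the adjusted threshold for Atf6. The log2 fold change ran from 0.31 to 0.42 when 1 library was left out.

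Atf6b (ENSMUSG00000015461, chromosome 17, 34647146 to 34655074, plus strand) encodes the paralog of ATF6, a weaker activator. It was at 8.88, 9.73, 6.39, 12.8 and 9.52 CPM in HFDfre and at 10.1, 12.7, 16.5 and 12.9 CPM in HFDfri. The groups overlapped, since HFDfre 4 was above HFDfri 1 and HFDfri 2. The log2 fold change of 0.47 ± 0.19 was larger than that of Atf6 but less precise (edgeR unadjusted p = 0.0281, adjusted p = 0.185). The log2 ratio of Atf6 to Atf6b counts was 2.07 ± 0.268 in HFDfre and 1.95 ± 0.151 in HFDfri. The difference of the 2 ratios was within the spread between libraries (two-sided exact permutation test, p = 0.476, adjusted 0.50 over the 4 ratios tested), so a change in the balance of the pair was not detected.

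Mbtps1 (ENSMUSG00000031835, chromosome 8, 119508156 to 119558735, minus strand) encodes site-1 protease, which makes the first cut in ATF6, in the CREB3 factors and in the SREBP precursors of sterol regulation. Its HFDfre libraries were at 35.1, 36.3, 30.5, 37.1 and 32.5 CPM and its HFDfri libraries at 39.7, 42.5, 42.2 and 40.1 CPM. The groups did not overlap, with HFDfri higher, as in 4.02% of all tested genes, and the 4 HFDfri libraries lay close together. The log2 fold change was 0.26 ± 0.08 (edgeR unadjusted p = 0.00863, adjusted p = 0.117), and it stayed between 0.22 and 0.29 whichever library was left out. Mbtps1 was the member with the narrowest such range.

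Mbtps2 (ENSMUSG00000046873, chromosome X, 157535371 to 157598715, minus strand) encodes site-2 protease, which cuts within the membrane after the first cut. It was at 5.28, 5.48, 6.24, 5.35 and 5.35 CPM in HFDfre and at 5.16, 6.76, 6.22 and 4.75 CPM in HFDfri. The HFDfri libraries lay on both sides of the HFDfre libraries, with a log2 fold change of 0.048 ± 0.14 (95% interval -0.25 to 0.35, edgeR adjusted p = 0.875). The gene Yy2 lies within its span on the same strand and was below 1 CPM on average in each group. The log2 ratio of Mbtps1 to Mbtps2 counts was 2.63 ± 0.203 in HFDfre against 2.86 ± 0.187 in HFDfri (by the exact permutation test p = 0.135, adjusted 0.302), so the proteases were not shown to differ in their response.

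Creb3l3 (ENSMUSG00000035041, chromosome 10, 81084324 to 81098874, minus strand) encodes CREBH, the hepatocyte member of the CREB3 family and an activator of Fgf21 and apolipoprotein genes. It was at 202, 214, 206, 237 and 231 CPM in HFDfre and at 232, 251, 288 and 272 CPM in HFDfri. Only HFDfri 1 lay within the HFDfre range, below HFDfre 4. The log2 fold change was 0.26 ± 0.09, which is 1.19-fold (edgeR unadjusted p = 0.0184, adjusted p = 0.157). It was 0.30 without HFDfri 1 and 0.21 without HFDfri 3.

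Creb3l2 (ENSMUSG00000038648, chromosome 6, 37327255 to 37442146, minus strand) encodes BBF2H7, which drives COPII coat genes in secretory cells. It was at 7.82, 6.88, 10.7, 6.08 and 9.82 CPM in HFDfre and at 15, 9.97, 20.6 and 12.2 CPM in HFDfri. HFDfri 3 was the highest and HFDfri 2 lay within the HFDfre range. Its log2 fold change of 0.81 ± 0.22 (1.75-fold, edgeR unadjusted p = 0.00301, adjusted p = 0.0853) was the largest of the members, and the DESeq2 adjusted p was 0.0111. It was 0.59 without HFDfri 3 and 0.27 in the 5 libraries with a low ribosomal share, which do not include HFDfri 3 or HFDfre 1, 2 and 4.

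Creb3 (ENSMUSG00000028466, chromosome 4, 43562332 to 43567060, plus strand) encodes Luman, the founding member of the family. It was at 24.6, 30.2, 30.3, 28.6 and 30.6 CPM in HFDfre and at 32.4, 28.1, 28.6 and 32.6 CPM in HFDfri, with a log2 fold change of 0.074 ± 0.09 (95% interval -0.13 to 0.28, edgeR adjusted p = 0.698). The ends of the gene overlap Tln1 and Gba2 on the opposite strand, and whether strand was used in counting is not stated. The log2 ratio of Creb3l3 to Creb3 counts was 2.92 ± 0.125 in HFDfre against 3.10 ± 0.205 in HFDfri (by the exact permutation test p = 0.151, adjusted 0.302).

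Creb3l1 (ENSMUSG00000027230, chromosome 2, 91982328 to 92024502, minus strand) encodes OASIS, a factor best known from bone and from collagen-producing cells. Its 9 libraries held between 13 and 85 counts. In HFDfre it was at 1.08, 0.265, 1.01, 0.534 and 0.602 CPM and in HFDfri at 1.51, 0.304, 0.176 and 0.543 CPM. The highest and the lowest library were both HFDfri, and the difference was within the spread between libraries (log2 fold change -0.15 ± 0.60, 95% interval -1.45 to 1.16, edgeR adjusted p = 0.918). In whole liver, fewer cells of a type and less RNA per cell cannot be told apart. The 6 markers of stellate cells and fibroblasts, none at 0 in every library, summed to between 95.4 and 152 CPM in HFDfre and between 80.8 and 139 CPM in HFDfri. The 5 cholangiocyte markers, also none at 0 in every library, summed to between 25.5 and 46.5 CPM and between 23.9 and 46.9 CPM. The part of either cell type in the Creb3l1 values was not tested.

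Ern1 (ENSMUSG00000020715, chromosome 11, 106394650 to 106487852, minus strand) encodes IRE1. It was at 31.2, 35.0, 33.7, 29.8 and 34.5 CPM in HFDfre and at 50.8, 38.6, 56.2 and 29.2 CPM in HFDfri. HFDfri 3 and HFDfri 1 were the highest of all libraries, while HFDfri 4 was the lowest. The log2 fold change was 0.41 ± 0.16 (edgeR unadjusted p = 0.0242, adjusted p = 0.174), and it was 0.27 without HFDfri 3 and 0.56 without HFDfri 4.

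Xbp1 (ENSMUSG00000020484, chromosome 11, 5520659 to 5525893, plus strand) encodes the factor that IRE1 activates through the splicing shown above. It was at 156, 126.4, 135, 126.2 and 140 CPM in HFDfre and at 382, 146, 192 and 155 CPM in HFDfri. HFDfri 1 was the highest library by far, HFDfri 3 came next, and HFDfri 2 and HFDfri 4 lay within the HFDfre range. The log2 fold change was 0.68 ± 0.24, which is 1.60-fold (edgeR unadjusted p = 0.0152, adjusted p = 0.147), and it was 0.25 without HFDfri 1. The SD of the HFDfri libraries was 50.7% of their mean, against 8.97% in HFDfre. The corresponding values were 27.8% and 6.83% for Ern1, and 11.3% and 6.80% for Atf6. The log2 ratio of Ern1 to Xbp1 counts was -2.05 ± 0.171 in HFDfre against -2.25 ± 0.517 in HFDfri (by the exact permutation test p = 0.50, adjusted 0.50), with HFDfri 1 the lowest at -2.91.

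The relatives of these sensors outside the group were examined beside them. Eif2ak3, which encodes PERK, the remaining ER stress sensor, was at 5.14, 4.45, 5.28, 5.69 and 6.90 CPM in HFDfre and at 7.18, 6.44, 22.4 and 5.89 CPM in HFDfri. HFDfri 3 stood apart from the other 3 HFDfri libraries (log2 fold change 0.93 ± 0.35, edgeR adjusted p = 0.166). Atf4 and Ddit3, the factors downstream of PERK, were 0.099 and 0.22 higher on the log2 scale, below the threshold (adjusted p by edgeR 0.736 and 0.579). Ern2, the IRE1 isoform of mucosal epithelia, had 4 counts in HFDfre 3, 4 in HFDfre 4 and 0 in the other libraries, and was not tested. Creb3l4 had between 0 and 20 counts.

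The targets of the factors were described by counts and medians, next to 11.4% of all tested genes that were higher and 9.79% that were lower at an unadjusted p under 0.05. All 14 ATF6 targets, chaperones and quality control genes of the ER, had a higher fitted level in HFDfri, and their median was 0.62 on the log2 scale. At an unadjusted edgeR p under 0.05, 11 were higher, and the count was 5 without HFDfri 3, 7 without HFDfri 1 and 0 in the 5 libraries with a low Gm26924 share. Over all tested genes 1966 of 14419, 3715 of 14463 and 1401 of 14483 passed that threshold in these settings, in either direction. None passed the adjusted threshold with edgeR or limma-voom, DESeq2 called 2 (Dnajc3 and Pdia6), and without HFDfri 2 edgeR called 4 (Creld2, Hspa5, Hyou1 and Manf). The shares of all tested genes called were 6.71% by DESeq2 and 1.63% by edgeR without HFDfri 2. The genes with the smallest p were Dnajc3, a co-chaperone (log2 fold change 0.53 ± 0.14, edgeR adjusted p = 0.0832), Pdia6, a disulfide isomerase (0.57 ± 0.17, adjusted p = 0.106), and Hyou1, an ER chaperone (1.24 ± 0.38, adjusted p = 0.112). Of the 18 XBP1 targets 14 had a higher fitted level, with a median of 0.20, and 6 were higher and 0 lower at the unadjusted threshold. Leaving out HFDfri 1 gave a median of 0.10, with 11 of the 18 higher, leaving out HFDfri 2 gave 0.27, with all 18 higher, and in the 5 libraries with a low Gm26924 share 1 gene passed the unadjusted threshold. By adjusted p edgeR called 0, limma-voom 1 (Srpr) and DESeq2 2 (Srpr and Edem1). Srpr was also called by edgeR with at least 10 counts in every library (adjusted p = 0.0413), counts divided by 4 (0.0423) or the Gm26924 covariate (0.0451). The shares of all tested genes called there were 1.68%, 1.69% and 0.654%. Without HFDfri 1 edgeR called Srpr and Dnajb9, against 7.65% of all tested genes, and without HFDfri 2 Syvn1, against 1.63%. The list was led by Srpr, a subunit of the receptor that docks ribosomes to the ER (0.51 ± 0.11, edgeR adjusted p = 0.050, just above the threshold), Edem1, which extracts misfolded glycoproteins (0.44 ± 0.12, adjusted p = 0.0806), and Syvn1, a ubiquitin ligase of ER-associated degradation (1.19 ± 0.37, adjusted p = 0.116).

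The HFDfri libraries differed in how many targets stood out. In HFDfri 1, 13 of 14 ATF6 targets lay above the highest HFDfre library, as did 12 in HFDfri 3, 6 in HFDfri 4 and 3 in HFDfri 2, against 20.6% to 28.4% of all tested genes. In HFDfri 2, 9 of the 14 lay below the lowest HFDfre library, as did 23.3% of all tested genes, while Atf6 itself was at 53.2 CPM there, above all of HFDfre. For the XBP1 targets the corresponding numbers above HFDfre were 17, 11, 6 and 4 of 18 in HFDfri 1, 3, 4 and 2, which is also the order of the Xbp1 level in these libraries. The numbers of ATF6 targets had the same order, so it was not particular to the XBP1 list. Whether genes of either list also respond to the other factor was not tested. Hspa5, the ER chaperone BiP and the best known ATF6 target, which was chosen for display after its values were seen, was at 708 CPM in HFDfri 1 and 984 CPM in HFDfri 3, but at 220 CPM in HFDfri 2 and 338 CPM in HFDfri 4. Its HFDfre libraries were between 220 and 305 CPM.

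**Figure D3:**
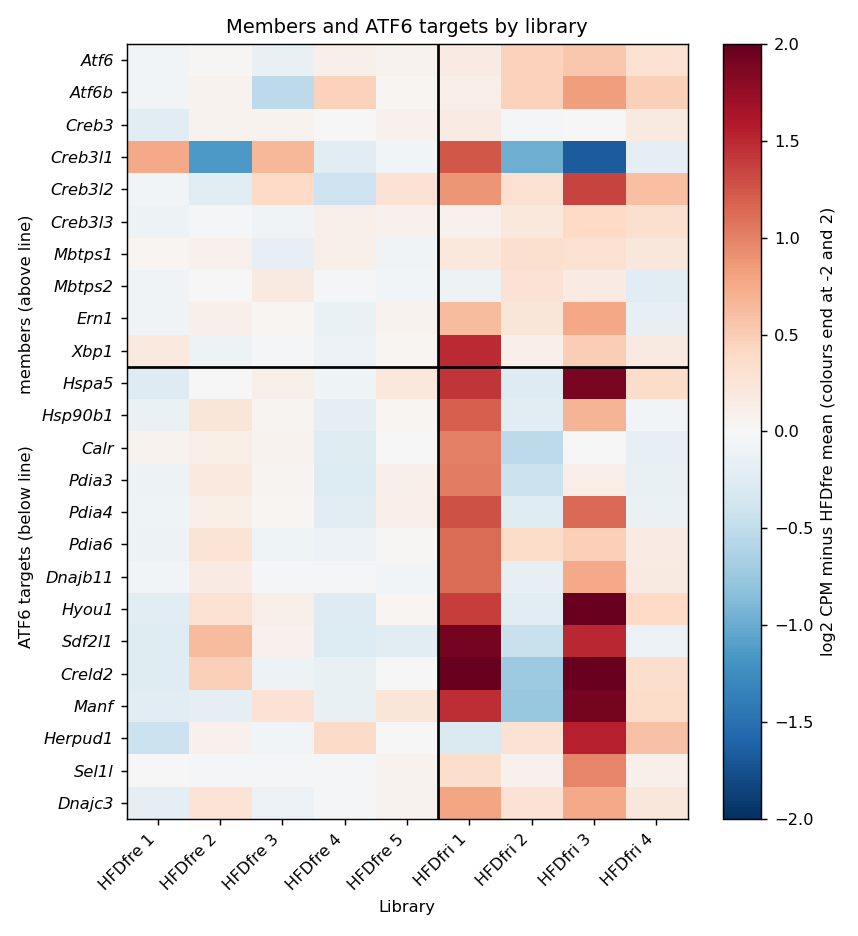
Log2 CPM of each library minus the HFDfre mean, for the 10 members (above the line) and the 14 ATF6 targets (below it), with HFDfre libraries left and HFDfri libraries right of the vertical line. Red cells of the targets gather in HFDfri 1 and HFDfri 3, while Atf6, Mbtps1 and Creb3l3 are lightly red in all 4 HFDfri libraries. Atf6b, Creb3l2 and Xbp1, and the targets Dnajc3, Pdia6 and Sel1l, also lie above the HFDfre mean in all 4.

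**Figure D4:**
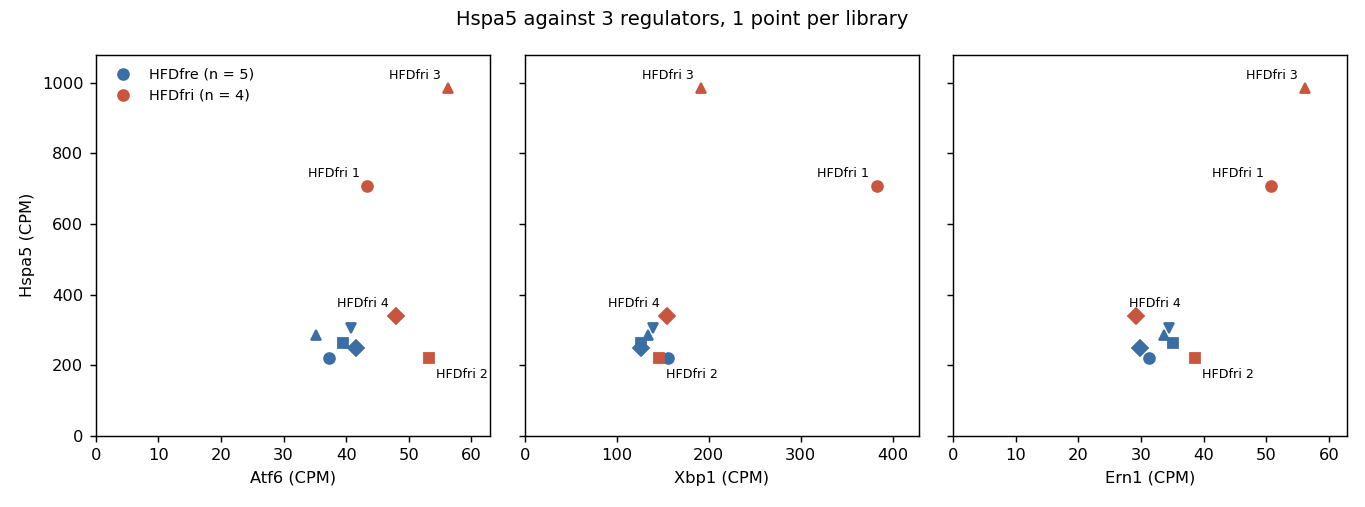
Hspa5 CPM (vertical) against Atf6, Xbp1 and Ern1 CPM (horizontal) in HFDfre (blue) and HFDfri (red) libraries, 1 point per library. The 2 libraries with high Hspa5, HFDfri 1 and HFDfri 3, are those with the highest Xbp1 and Ern1. HFDfri 3 also has the highest Atf6, and HFDfri 2, at 220 CPM of Hspa5, has the second highest Atf6.

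ATF6 is known to bind, with NF-Y, the ER stress response element, and the promoter windows of 3 ATF6 targets that hold its letters are shown because these genes are among those described above. RefSeq promoter windows of 250 bases before and 50 bases after the start (GRCm38.p6) were searched on both strands for CCAAT followed, after any 9 bases, by CCACG. The letters were found in 6 of the 12 ATF6 targets with a window (Calr, Creld2, Dnajc3, Hsp90b1, Hspa5 and Pdia6) and in 0.119% of all 32851 windows. The first number counts genes and the second windows, and the list holds known targets, so this is not a test. In the lines below capitals mark the match, and all 3 windows are on the plus strand, at chr2:34771995-34772073, chr12:17266461-17266539 and chr14:118937797-118937875.
Hspa5: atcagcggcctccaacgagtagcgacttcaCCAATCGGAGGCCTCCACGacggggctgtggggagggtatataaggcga
Pdia6: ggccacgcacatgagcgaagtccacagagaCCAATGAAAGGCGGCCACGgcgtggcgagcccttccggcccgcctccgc
Dnajc3: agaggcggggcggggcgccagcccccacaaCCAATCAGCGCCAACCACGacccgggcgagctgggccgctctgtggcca
The matches begin 65, 98 and 105 bases before the start. The related element, ATTGG and CCACG with any 1 base between them, was found in Dnajb11 and Herpud1 and in 0.0365% of all windows. Of the 10 members 8 had a window, and neither of these elements, nor TGACGTGG (0.676% of all windows), nor TGACGTCA (1.79%), was found in it. A match is a description of letters and was not tested for binding.

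The targets of CREB3L3 did not move one way. Of 11 genes 5 had a higher and 6 a lower fitted level, the median was -0.034 on the log2 scale (0.016 with library totals, and from -0.20 without HFDfri 1 to 0.050 without HFDfre 1), and at the unadjusted threshold 1 was higher and 2 were lower. Crp, an acute phase protein, was at 256 ± 24 CPM in HFDfre and 335 ± 17.8 CPM in HFDfri, without overlap (log2 fold change 0.39 ± 0.09, edgeR adjusted p = 0.0670, and 0.0406 without HFDfri 1). In the fit without HFDfri 1, 7.65% of all tested genes passed the adjusted threshold. Apoc2, the cofactor of lipoprotein lipase, was at 253 ± 47.2 and 189 ± 26.5 CPM (-0.42 ± 0.15, edgeR adjusted p = 0.148). Apoa4, an apolipoprotein of triglyceride-rich particles, was at 1388 ± 698 and 765 ± 283 CPM (-0.86 ± 0.35, edgeR adjusted p = 0.196). Of the 6 targets of CREB3L1 and CREB3L2, 4 had a higher fitted level, with a median of 0.086. They included Golga5, a Golgi protein (0.28 ± 0.10, edgeR adjusted p = 0.163), and Sec24d, a COPII coat subunit that is also in the XBP1 list (0.25 ± 0.10, adjusted p = 0.177). Col1a2, a collagen chain, was at 7.78 ± 2.68 CPM in HFDfre and 4.92 ± 1.30 CPM in HFDfri (-0.66 ± 0.25, edgeR adjusted p = 0.167).

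IRE1 also degrades some ER-bound mRNAs. Of 6 known substrates of this decay 4 had a lower fitted level in HFDfri, and their median was -0.20 on the log2 scale (-0.075 without HFDfri 3 and -0.31 without HFDfri 4). Bloc1s1, the substrate most used to read it, was at 61.6, 48.3, 63.4, 50.6 and 59.3 CPM in HFDfre and at 61.6, 35.5, 34.1 and 38.7 CPM in HFDfri (-0.42 ± 0.17, edgeR unadjusted p = 0.0298, adjusted p = 0.189). HFDfri 1, where Ern1 and Xbp1 were high, was the HFDfri library in which Bloc1s1 lay within the HFDfre range, and without it the log2 fold change was -0.66 with an edgeR adjusted p of 0.0175. In that fit 7.65% of all tested genes passed. Of 19 alternative settings, Bloc1s1 passed the adjusted threshold in this 1 and an unadjusted p of 0.05 in 12. Its log2 fold change ran from -0.66 to -0.32 when 1 library was left out. Sparc was at -0.21 and Col6a1 at -0.19 on the log2 scale (adjusted p by edgeR 0.438 and 0.565). The 10 partners and modulators of IRE1 and ATF6 had a median of 0.11 with 8 higher, and 0 reached an unadjusted p under 0.05. Those with the smallest p were Crebzf (-0.23), Sec63 (0.18) and Ptpn1 (0.32), with edgeR adjusted p of 0.266, 0.277 and 0.300.

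The site proteases also release the SREBP factors of lipid synthesis. Of the 6 genes of that cargo and its escort 5 had a higher fitted level, and their median was 0.16 on the log2 scale (0.30 without HFDfri 1 and 0.072 without HFDfri 2). Scap, the escort that carries SREBP to the Golgi, was at 51.0 ± 6.31 CPM in HFDfre and 64.8 ± 13.8 CPM in HFDfri (0.35 ± 0.15, edgeR adjusted p = 0.208, and 0.0303 without HFDfri 1, where 7.65% of all tested genes passed), Srebf2 had 0.30 ± 0.14 (adjusted p = 0.237) and Insig1, which retains Scap in the ER, had 0.20 ± 0.19 (adjusted p = 0.575). Of 10 SREBP targets 9 had a higher fitted level, with a median of 0.40 (0.26 without HFDfri 3), and 5 were higher and 0 lower at the unadjusted threshold. With all libraries Sqle, squalene epoxidase of cholesterol synthesis, was the 1 gene of the target lists that edgeR called. Sqle was also called by DESeq2 and limma-voom, and DESeq2 called Idi1, Acaca and Fasn of this list and Crp of the CREB3L3 targets as well. Sqle rose from 13 ± 2.83 CPM in HFDfre to 29.5 ± 4.62 CPM in HFDfri, without overlap, a log2 fold change of 1.18 ± 0.16 with an edgeR adjusted p of 0.0147. The adjusted p was above the threshold without HFDfre 3 (0.0539), HFDfre 5 (0.0705) or HFDfri 3 (0.0524). Idi1 of the same pathway had 0.98 ± 0.21 (edgeR adjusted p = 0.0503) and Acaca, which commits carbon to fatty acids, 0.69 ± 0.16 (adjusted p = 0.0589). In HFDfri 1, 4 of the 10 SREBP targets and 24.9% of all tested genes lay below all HFDfre libraries.

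Genes whose log2 CPM moved most like that of 4 members over the 9 libraries, after each group was centred on its own mean, were listed by Pearson's r as a description, among 10122 genes compared. The 9 points share the libraries and their depth. For Atf6 they were Aifm1, Acot12, Dsg2 and BC031181 (r from 0.97 to 0.98). For Xbp1 they were Ddost, a subunit of the oligosaccharyltransferase of the ER, Lsm2, Gm6484 and Rrbp1, a ribosome-binding protein of the ER (r from 0.97 to 0.98), and r was between 0.86 and 0.94 without HFDfri 1. For Ern1 they were Zfp263, Arcn1, a COPI coat subunit, Mettl13 and Ero1lb, an ER oxidase (r from 0.95 to 0.97). For Creb3l3 they were Rpusd3, Rabl3, Odc1, which makes polyamines, and Eif4g2 (r of 0.96).

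The libraries held between 58614917 and 69353439 counts each. The share of the ribosomal RNA-like gene Gm26924 ran from 0.466% to 11.1%, and it was under 3% in 2 HFDfre and 3 HFDfri libraries. With that share as a covariate the log2 fold changes were 0.40 for Atf6, 0.32 for Mbtps1 and 0.65 for Xbp1. Within the 5 libraries under 3% they were 0.34, 0.37 and 0.73, while Ern1 was at 0.21 and Creb3l2 at 0.27. The mitochondrial share was between 11.4% and 19.8% in HFDfre and between 8.93% and 13.6% in HFDfri, where 3 of 4 libraries lay below every HFDfre library, and its part in the members' values was not tested. The 6 hepatocyte markers summed to between 84029 and 111157 CPM, as the liver label requires, and the 4 lymphocyte markers to at most 2.42 CPM. Of 5 pancreatic acinar markers Cpa1, Prss2 and Pnlip were at 0 in every library and Ctrb1 had 4 counts in 1 HFDfre library. The summed level of the 5, between 10.02 and 16.8 CPM in HFDfre and between 17.2 and 25.3 CPM in HFDfri, was thus nearly all Cela1. Dbp, an output gene of the circadian clock, fell from 82.4 ± 11.2 to 47.4 ± 7.46 CPM, without overlap (log2 fold change -0.80 ± 0.13, edgeR adjusted p = 0.0293, and between 0.0636 and 0.0888 without HFDfre 3, HFDfre 5, HFDfri 3 or HFDfri 4), while Arntl was at 0.35 and Nr1d1 at 0.22 on the log2 scale (adjusted p by edgeR 0.588 and 0.719). The hour at which each liver was taken is not given in the sources used here, and its part in the values of the members was not tested.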

How the data were processed

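Liver RNA was sequenced as paired-end Illumina reads. The estimated counts per gene that the authors deposited came from HISAT2 and StringTie on mm10, per the labels, and are whole numbers not scaled between libraries. The annotation, tool versions and use of strand are not given in the sources used here, and the labels and the methods of the study name different library kits. Among low values, 4 was seen 3990 times over all genes and libraries, 3 was seen 2172 times and 5 1840 times, so the values may not be whole reads and count models treat counting error approximately.

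Counts were rounded, which left them as they were. Genes were kept with filterByExpr (14220 of 33211) and compared as HFDfri minus HFDfre by quasi-likelihood F-test in edgeR 4.0.16 (R 4.3.3), with TMM scaling, no covariate, and Benjamini-Hochberg adjustment over all tested genes. The SE is the log2 fold change divided by the square root of F. Ratios of 2 genes used counts with 0.5 added and a two-sided exact permutation test, whose smallest possible p is 0.00794. Alternatives were DESeq2 1.42.0, limma-voom (limma 3.58.1), other scalings and filters, counts divided by 4, a term for the replicate number, a Gm26924 covariate, and fewer libraries. The scripts were tested on simulated data. GENCODE M21 (GRCm38), which holds 96.3% of the identifiers, gave coordinates and exon lengths. Adgre1 and Ciart were not matched by symbol.

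The members and gene lists were chosen with earlier results of these data known. The lists were written from general knowledge. The genes named are the members, their relatives, in each list those past the adjusted threshold and the 3 with the smallest p, and the 4 with the most similar pattern for each of 4 members. The calls of 1 listed gene are not reported here.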

Additional observations from a re-analysis of the deposited data

Results flagged for a closer look

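Among 28 sets of values, the 10 members and the 4 ratios in each group, 1 library lay far from the others of its group, where chance gives about 1 in 20, or 1.40 of 28. This was Mbtps2 in HFDfre 3, at 6.24 CPM against 5.28 to 5.48 CPM in the other 4 HFDfre libraries. The gap was 0.787 of the spread from the lowest to the highest HFDfre library. The Mbtps2 result did not pass the threshold with or without this library.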

How the results depend on the processing

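The 150 genes past the adjusted threshold were 954 by DESeq2, 76 when library totals set the scaling, 72 without a filter, 93 with the Gm26924 covariate and 2 in the 5 libraries with a share under 3%, and they ranged from 6 to 1106 when 1 library was left out. The 1106 genes were found without HFDfri 1 (7.65% of those tested). The members past it were 2 with DESeq2 (Atf6, adjusted p = 0.0217, and Creb3l2, 0.0111) and 0 to 1 when 1 library was left out. The members at an unadjusted p under 0.05 were 3 in the 5 libraries and 4 to 7 when 1 library was left out. Over all tested genes the corresponding numbers were 1401 and 1966 to 3715. The median of the IRE1 and ATF6 partners was 0.18 with library totals and 0.15 in the 5 libraries, and that of the clock genes was -0.19 in the 5 libraries and between -0.26 and 0.10 when 1 library was left out. Reversed signs were found for Mbtps2 in the 5 libraries (-0.064) and without HFDfri 2 (-0.042, with a range from -0.042 to 0.13 over the omitted libraries), for Creb3l1 without HFDfre 1 (0.057), HFDfre 3 (0.028), HFDfri 2 (0.086) and HFDfri 3 (0.17, range from -1.04 to 0.17), for Atf4 (-0.054, range from -0.054 to 0.19) and Nr1d1 (-0.049, range from -0.049 to 0.44) without HFDfri 1, for Ddit3 in the 5 libraries (-0.14) and without HFDfri 3 (-0.049, range from -0.049 to 0.38), and for the ratio of Ern1 to Xbp1 without HFDfri 1 (0.022, range from -0.36 to 0.022). The filter and the fewer libraries change what is tested; for the other settings the cause was not tested. Nothing in the labels pairs libraries of the same replicate number, and the correlations of their deviations from the group means lay between -0.136 and 0.0813. The replicate block was fitted without HFDfre 5, which has no HFDfri library of its number. With it 0 genes passed, of which 0 were members, with 2533 at an unadjusted p under 0.05. Leaving out HFDfre 5 without the block left 6 genes past the adjusted threshold. With counts divided by 4, no member passed and 205 genes did. Creb3l1 had the fewest counts of the members, and its SE was 0.573 with counts divided by 4 against 0.597.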
